A study of Homo sapiens with 15 samples.

Results

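The response of MOLM-13 cells to knockdown of RNF5 was examined by comparing the 2 RNA-seq libraries of this line carrying an shRNA against RNF5 (shRNF5) with the 3 carrying the empty pLKO vector, 5 of the 15 libraries of the series. Members were the genes listed above 0 in any of these 5 libraries, 13026 of 57820 gene identifiers. MOLM-13 is an established human acute myeloid leukemia (AML) line of monocytic type. Both constructs were delivered by lentivirus, and the labels describe pLKO as a vector-only control, so an effect of carrying a hairpin and an effect of losing RNF5 cannot be told apart. The hairpin used for sequencing is not named in the sources used here. RNA was taken 7 days after knockdown according to the sample protocol and 5 days according to the series design. The sources give different library kits, one in the labels that primes near transcript 3′ ends and one in the methods that is directional and selects poly(A) RNA. The study's summary of its methods says in general that experiments were repeated independently, but the sources used here do not say whether these 5 libraries came from separate cultures, so p-values measure the spread between these libraries, which may be technical.

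RNF5 is a small RING-type ubiquitin ligase anchored in the membrane of the endoplasmic reticulum (ER). It takes part in ER-associated degradation, in which misfolded membrane proteins are tagged with ubiquitin, extracted and destroyed by the proteasome, and it also tags proteins outside that pathway. The study asked which transcripts change when AML cells lose this ligase.

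Values are the deposited normalized read counts, scaled by the authors within the line and rounded, and fold changes are on the log2(value + 1) scale, shRNF5 minus pLKO, which understates the change of low genes. The steps between low values put the depth at 9700000 to 63800000 reads per library, with shRNF5 replicate 1 the deepest. No gene with a mean value under 14 over the 5 libraries was listed above 0. pLKO replicate 1 stood apart from the other libraries. Its log2 values correlated with those of the other 4 at r = 0.962 to 0.974 across genes, against 0.973 to 0.992 among those 4, and limma's library weights gave it 0.24, against 0.63 to 2.15 for the others. All 9 myeloid markers listed for the line (such as CD33, MPO and LYZ) were tested, and none was called changed by limma (1 at an unadjusted p under 0.05). Their lowest library value was 213. By contrast, 4 of 19 lymphoid and 5 of 22 erythroid or megakaryocytic markers were above the deposited filter. Those that passed were not all low. Means over the 5 libraries were 1124.4 for the lymphoid marker PAX5, and 1026 and 8476 for NFE2 and TFRC of the other list.

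A gene was called changed at a limma Benjamini-Hochberg adjusted p under 0.1 with an absolute log2 fold change over 0.4. By this rule 266 genes changed, 2.04% of those tested, with 134 higher (1.03%) and 132 lower (1.01%) in shRNF5. Of these, 68 of the rises and 62 of the falls exceeded a log2 fold change of 1. The median was 1.05 among the rises and −0.97 among the falls. The 2 groups of libraries did not overlap for any of the 266 genes, and among all genes tested the shRNF5 libraries lay wholly above the pLKO libraries for 19.6% and wholly below for 19.2%. Protein-coding genes made up 125 of the rises and 125 of the falls, and long noncoding RNAs 8 of the rises and 1 of the falls. At an unadjusted p under 0.05 there were 2213 genes.

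The number of calls depended on single libraries. Without pLKO replicate 1, 872 genes were called, the 266 among them. Without pLKO replicate 2 only RNF5 was called, and without pLKO replicate 3 the count was 41, of which 39 were among the 266. It was 6 without shRNF5 replicate 1 and 2 without shRNF5 replicate 2. The titles number the shRNF5 libraries 1 and 2 and the deposited files number the same libraries 2 and 3, and with these numbers as pairs the counts were 738 and 2495. With library weights, which lower the share of pLKO replicate 1, the count was 2224. Each of the 266 genes kept a log2 fold change over 0.4 in size in all 5 fits that left out a library. Their direction could not change in these fits, because the 2 groups of libraries did not overlap for any of them. The genes called in at least 3 of the 5 were RNF5, NFATC2, NAV3, SLC38A1 and the long noncoding RNA RP11-301G19.1.

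**Figure D1:**
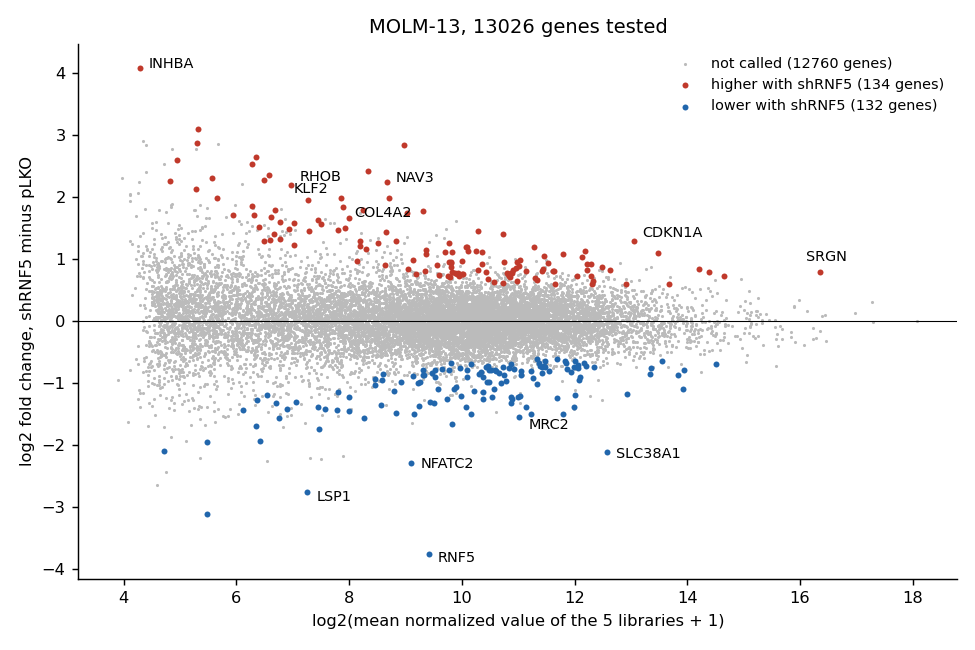
Each point is a gene tested in MOLM-13, with the log2 of its mean normalized value over the 5 libraries plus 1 on the x axis and the log2 fold change of shRNF5 over pLKO on the y axis. The 134 genes called higher are red, the 132 called lower are blue and the rest are gray, and RNF5 lies at −3.77, apart from the other falls at its level.

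RNF5 itself (chr6:32146182-32148570, forward strand of GRCh37) had normalized values of 1223, 1017 and 1020 in the pLKO libraries and 76 and 81 in the shRNF5 libraries. It fell 13.6-fold (log2 fold change −3.77, SE 0.18, limma adjusted p = 0.000336). RNF185, the closest relative of RNF5 and also an ER membrane ligase, had a log2 fold change of 0.16 (SE 0.24, limma adjusted p = 0.753). Of 35 genes of ER-associated degradation that were tested, 0 rose (against 1.03% of all genes) and 2 fell (5.71%, against 1.01%). One of these was RNF5 and the other STT3B, a catalytic subunit of the complex that attaches N-linked glycans to proteins in the ER. STT3B was at 7855, 11844 and 10688 with pLKO and at 4316 and 4484 with shRNF5, a 2.27-fold fall (log2 fold change −1.18, SE 0.18, limma adjusted p = 0.0592). The median of this list was 0.07, against 0.007 over all genes tested. None of 25 genes of the unfolded protein response was called by limma (4 at an unadjusted p under 0.05, and 2 higher and 2 lower with library weights), and their median was −0.06. Over all 13026 genes tested, 2213 were at that unadjusted p and library weights called 2224.

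Genes of the actin cytoskeleton and its regulators contributed the most calls of any list in this fit. ROCK kinases phosphorylate the LIM kinases, and these in turn hold the actin-severing protein cofilin inactive, while slingshot phosphatases reverse that step. Of 49 genes of the list that were tested, 10 rose (20.4%, against 1.03% of all genes) and 1 fell (2.04%, against 1.01%). Yet the list's median log2 fold change was only 0.08. The shRNF5 libraries lay above all pLKO libraries for 21 members (42.9%, against 19.6% of all genes) and below them for 9 (18.4%, against 19.2%). By share, extracellular matrix genes had more rises (27.3% against 20.4%), and without the mean-variance trend the actin list held 1 rise against 5 for the matrix list. The largest rise was that of RHOB, a small GTPase of endosomes and the plasma membrane (chr2:20646835-20649201). RHOB was at 61, 42 and 49 with pLKO and at 233 and 234 with shRNF5, so that both knockdown libraries were far above the controls. The change was 4.59-fold (log2 fold change 2.20, SE 0.28, limma adjusted p = 0.0348).

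Next by size were SH3PXD2A, a scaffold of invasive actin protrusions (log2 fold change 0.95), the actin monomer-binding protein TWF1 (0.93), the GTPase RHOC (0.91) and the slingshot phosphatase SSH1 (0.86). The 5 remaining rises were added to the text after their values were seen. ROCK2, a kinase upstream of the LIM kinases, was at 2990, 4232 and 3779 with pLKO and at 6816 and 6106 with shRNF5 (log2 fold change 0.83, limma adjusted p = 0.0853). LIMK1 was at 579, 470 and 453 and then at 833 and 922 (0.82, limma adjusted p = 0.0933). The actin crosslinker FLNA was at 19829, 15786 and 14405 and then at 29029 and 28029 (0.79, limma adjusted p = 0.0853). In each of these 3 genes both knockdown libraries exceeded the highest control by more than the range of the controls. Non-muscle myosin heavy chain MYH9 had a log2 fold change of 0.72 (limma adjusted p = 0.078) and the formin DIAPH1, which nucleates actin filaments, one of 0.60 (limma adjusted p = 0.0937). The rises thus included both LIMK1 and SSH1, which act on cofilin in opposite directions. The only fall was that of LSP1, a leukocyte F-actin-binding protein, which was at 410, 110 and 177 with pLKO and at 18 and 45 with shRNF5. Its log2 fold change of −2.77 (SE 0.58, limma adjusted p = 0.0853) had the largest SE of the called members. The abundant β-actin gene ACTB (log2 fold change −0.32, limma adjusted p = 0.401) and cofilin CFL1 (−0.25, limma adjusted p = 0.42) did not pass the test.

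The promoters of the called genes were searched for 17 motifs on both strands, from 250 bases before to 50 after the start of the reference transcript, in windows read from GRCh37 for 12638 genes (97.0% of those tested). The CArG box, the element bound by serum response factor, is 2 C, then A or T only, then 2 G, and is known from actin and early response genes. It was present in the windows of 6 of 133 genes that rose (4.51%), in 1 of 128 that fell (0.781%) and in 134 of all 12638 (1.06%). The sequences of the 6 boxes are shown because they are the only searched element whose share among the rises was over 4 times that among all genes. Each line gives the strand on which the gene is transcribed, 5′ to 3′, with the box in capitals.

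ATXN1, chr6:16761852-16761881: gccaactgctCCATATTTGGcttctattac

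PIWIL4, chr11:94300403-94300432: ctggataatgCCAAATTTGGgggtgggggt

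ELMSAN1, chr14:74227051-74227080: ccttccccggCCTTATTTGGtcgcaggaag

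MYO1E, chr15:59665082-59665111: gctgagttctCCATTTATGGacagattgcc

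HTRA3, chr4:8271437-8271466: tgggcggtcgCCTTTAAAGGcgcgggaccc

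FLNA, chrX:153603077-153603106: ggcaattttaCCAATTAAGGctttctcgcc

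These 6 genes were named because of the match and not by their change. Of the 10 rises of the actin list only FLNA was among them, and of the early response rises KLF2, BTG2 and FOSL1 none was. FLNA and the class I myosin MYO1E belong to the actin cytoskeleton, HTRA3 is a secreted protease, and ATXN1, ELMSAN1 and PIWIL4 act in the nucleus or on RNA. Their log2 fold changes were 0.79 for FLNA, 2.61 for MYO1E, 1.72 for HTRA3, 0.97 for ATXN1, 0.76 for ELMSAN1 and 0.87 for PIWIL4. MYO1E had a mean value under 50 over the 5 libraries, so the size of its fold change depends partly on the pseudocount. The count is small, a match is a run of letters and not a bound site, and no test was made. The other elements were counted in the same windows, also without a test. The AP-1 element TGANTCA was in 3.76% of windows of genes that rose, 6.25% of those that fell and 3.84% of all. The CCAAT box was in 34.6%, 35.9% and 36.3%, and the GC box GGGCGG in 72.9%, 66.4% and 69.5%. GGAATG, the core of the TEAD element, was in 9.02%, 18.0% and 10.1%, so its share was higher among genes that fell. The ETS element ACCGGAAG was in 0.752%, 1.56% and 4.48%, a lower share of both sets than of all windows. The E-box CACGTG was in 9.77%, 12.5% and 9.99%, and CACCC in 63.2%, 68.0% and 62.7%. For the cAMP response element TGACGTCA the shares were 1.5%, 3.12% and 3.27%, and for its shorter form TGACG they were 31.6%, 30.5% and 33.7%. The E2F element TTTCGCGC and the SMAD element GTCTAGAC were each in at most 1 window of either set. The TATA box was in 6.77%, 7.81% and 6.47%, and the cell cycle homology region in 13.5%, 10.9% and 10.3%. The consensus of the p53 half-site, which is only a part of a p53 site, was in 6.77%, 6.25% and 4.98%. That of the NRF1 element was in 1.5%, 2.34% and 2.38% and that of the amino acid response element in 0.752%, 1.56% and 0.934%. TGACG is part of TGACGTCA, so their matches overlap.

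**Figure D2:**
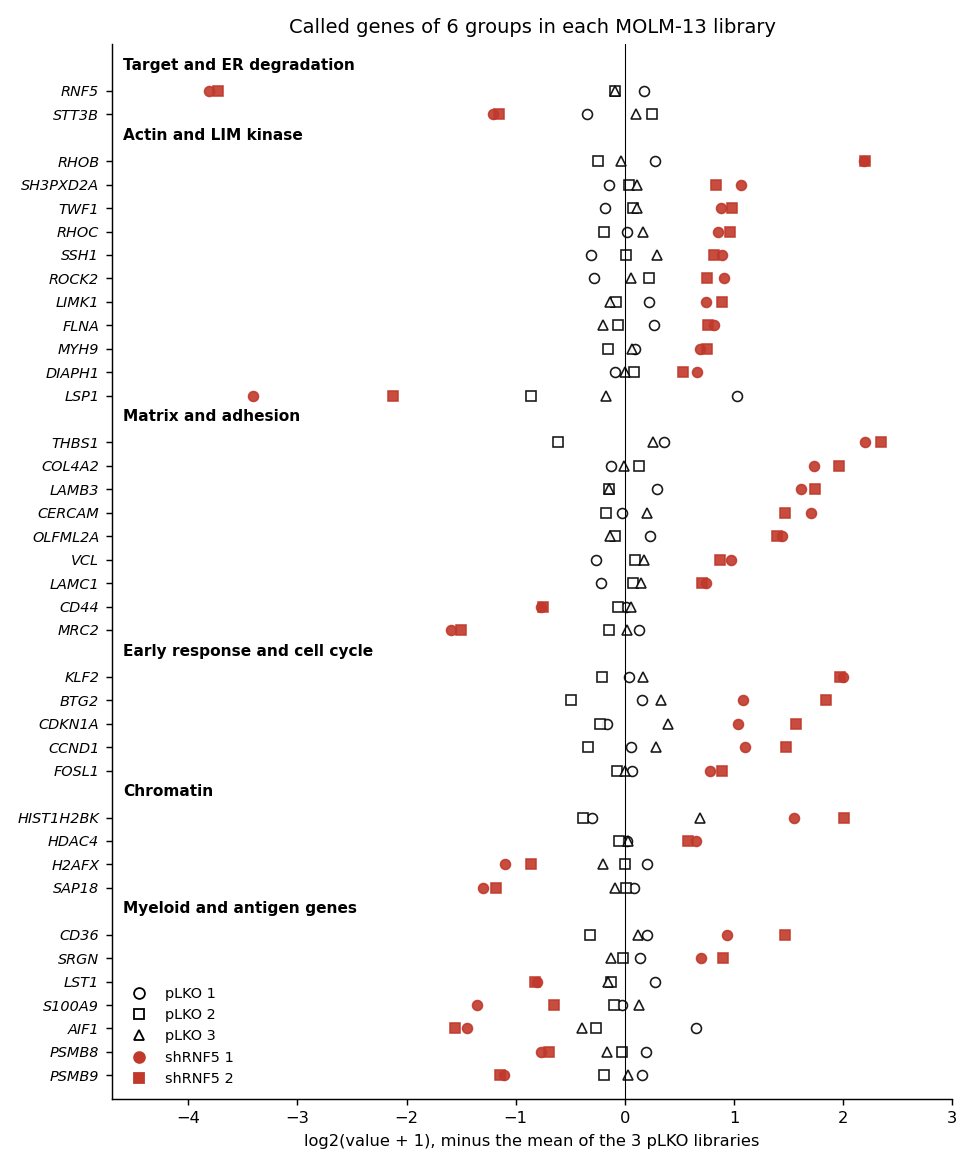
Each row is a called gene of 6 groups, and each marker is 1 MOLM-13 library, placed on the x axis by its log2(value + 1) minus the mean of the 3 pLKO libraries (open markers pLKO, filled red markers shRNF5). The filled markers of each row lie to one side of all open markers, and the open markers of LSP1 and AIF1 are spread widely.

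Of 22 extracellular matrix and basement membrane genes tested, 6 rose (27.3%, against 1.03% of all genes) and 1 fell (4.5%, against 1.01%). Counting all members whether called or not, 13 had higher and 9 lower values, and the median was 0.28, with a range of 0.13 without pLKO replicate 2 to 0.56 without pLKO replicate 1. THBS1, a matricellular glycoprotein that can activate latent TGF-β, was at 44, 22 and 41 with pLKO and at 161 and 178 with shRNF5 (log2 fold change 2.28, SE 0.37, limma adjusted p = 0.0622). COL4A2, a chain of basement membrane type IV collagen, was at 106, 127 and 115 with pLKO and at 388 and 454 with shRNF5, a 3.60-fold rise (log2 fold change 1.85, SE 0.21, limma adjusted p = 0.0275). The 3 controls of COL4A2 lay close together, and both knockdown libraries were far above them. The laminin chains LAMB3 (log2 fold change 1.68) and LAMC1 (0.73), the adhesion molecule CERCAM (1.59) and the secreted glycoprotein OLFML2A (1.41) rose as well.

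COL4A2 and its partner chain COL4A1 are transcribed in opposite directions from a shared promoter. COL4A1, named after its values were seen, was at 27, 37 and 54 with pLKO and at 20 and 37 with shRNF5, and the groups overlapped (log2 fold change −0.46, SE 0.46, limma adjusted p = 0.641). The difference between the 2 genes was not tested. Their reference start sites lie 126 bases apart, and the segment is shown because one of its sides rose while the other did not pass the test. It is written 5′ to 3′ on the forward strand, with the bases between the start sites in capitals and COL4A2 to the right.

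COL4A2 and COL4A1, chr13:110959495-110959640: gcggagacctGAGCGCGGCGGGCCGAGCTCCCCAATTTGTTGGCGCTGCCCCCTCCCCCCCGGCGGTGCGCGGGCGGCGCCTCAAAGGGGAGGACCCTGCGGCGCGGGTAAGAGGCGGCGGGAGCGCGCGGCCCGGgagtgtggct

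The fall in this list was MRC2, an endocytic receptor that takes up collagen for breakdown. MRC2 was at 3076, 2533 and 2836 with pLKO and at 930 and 993 with shRNF5, a 2.92-fold fall (log2 fold change −1.55, SE 0.15, limma adjusted p = 0.0136). Among 21 leukocyte integrin and adhesion genes, VCL rose and CD44 fell (4.76% each way, against 1.03% and 1.01% of all genes). VCL (vinculin), which links integrins to actin, was at 2914, 3731 and 3942 with pLKO and at 6859 and 6425 with shRNF5 (log2 fold change 0.92, limma adjusted p = 0.0682). CD44, the hyaluronan receptor, was at 5127, 4859 and 5290 and then at 2988 and 3021 (−0.76, limma adjusted p = 0.0647). In the TGF-β and activin family 1 of 30 genes tested was called (3.33% higher, against 1.03% of all genes). This was INHBA, a subunit of activin A and inhibin A. INHBA was listed at 0, 3 and 3 with pLKO and at 31 and 56 with shRNF5 (limma adjusted p = 0.0853), and its fold change rests on the pseudocount because the controls are at the bottom of the scale. The median of the family was 0.24. The shRNF5 libraries lay above all pLKO libraries for 13 members (43.3%, against 19.6% of all genes) and below for 2 (6.67%, against 19.2%).

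Early response genes, which are switched on quickly after a stimulus, had 3 rises (12.5%, against 1.03% of all genes) and no fall (against 1.01%) among 24 tested. Their median was 0.28 and ranged from 0.08 without shRNF5 replicate 2 to 0.42 without shRNF5 replicate 1. KLF2, a Krüppel-like factor linked to quiescence in leukocytes, was at 108, 91 and 118 with pLKO and at 423 and 415 with shRNF5, a 3.96-fold rise (log2 fold change 1.99, SE 0.22, limma adjusted p = 0.0255). The antiproliferative gene BTG2 (log2 fold change 1.46) and the AP-1 subunit FOSL1 (0.84) were the other 2. BTG2 is also a target of p53. In the list of p53 targets BTG2 and CDKN1A were the only calls among 35 genes tested (5.71%, against 1.03% of all genes called higher), with a median of 0.125. CDKN1A, encoding the cyclin-dependent kinase inhibitor p21, was at 4671, 4468 and 6899 with pLKO and at 10758 and 15509 with shRNF5 (log2 fold change 1.30, SE 0.23, limma adjusted p = 0.0682). CCND1, encoding cyclin D1, a G1 cyclin that drives the kinases which p21 inhibits, rose as well, from 296, 225 and 346 to 612 and 796 (log2 fold change 1.29, limma adjusted p = 0.0704).

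No member of the replication or mitosis lists was called by limma, although 14 and 11 of their genes had lower values at an unadjusted p under 0.05. With library weights, limma called 19 of 41 replication and 19 of 56 mitosis genes lower and none higher. With the replicate numbers as pairs, 4 and 5 were called lower by the numbers of the titles and 18 and 27 by those of the files. Of all 13026 genes tested, 1102 had lower values at an unadjusted p under 0.05. In both directions, library weights called 2224 of all genes and these pairings 738 and 2495. Of 41 DNA replication genes tested, the shRNF5 libraries lay below all pLKO libraries for 20 (48.8%, against 19.2% of all genes) and above them for none (against 19.6%). The median was −0.31, ranging from −0.44 without shRNF5 replicate 1 to −0.21 without shRNF5 replicate 2. MCM3, a subunit of the replicative helicase, was at 10416, 10265 and 8864 with pLKO and at 7883 and 6834 with shRNF5 (log2 fold change −0.42, limma adjusted p = 0.212). The median of 56 mitosis genes was −0.23, and it was −0.004 without shRNF5 replicate 2. Of the 56, 8 had higher and 48 lower values. MKI67, a mitosis gene among the highest by mean, was at 5595, 13150 and 13370 with pLKO and at 21408 and 12363 with shRNF5. Its groups overlapped (log2 fold change 0.71, limma adjusted p = 0.384).

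**Figure D3:**
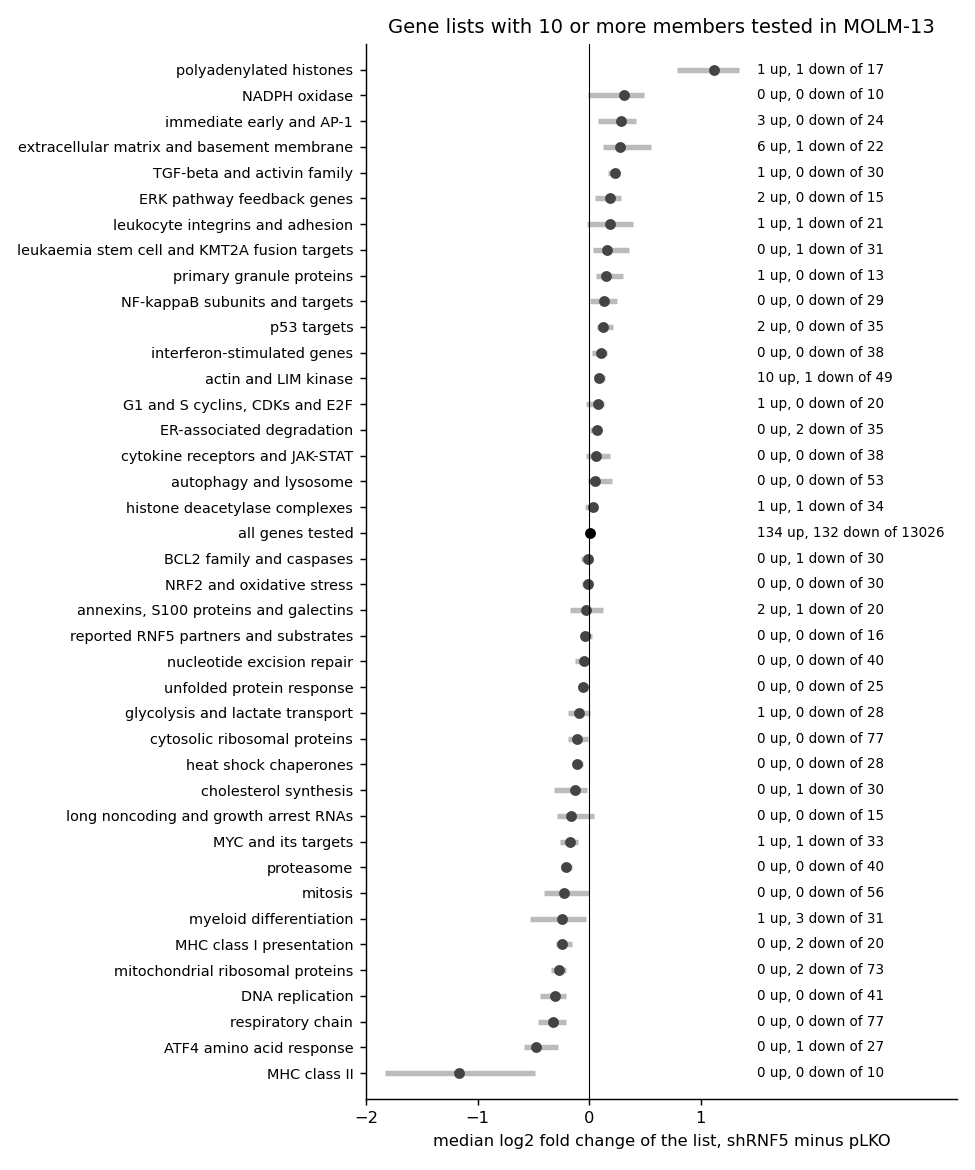
Each row is a gene list with at least 10 members tested, the dot is its median log2 fold change of shRNF5 over pLKO, the gray bar spans the medians of the 5 fits that leave out 1 library, and the counts of called members stand on the right. The lists for actin (10 up, 1 down) and extracellular matrix (6 up, 1 down) hold the most calls, although their medians are 0.08 and 0.28.

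Calls among chromatin genes went in both directions. Of 34 genes of histone deacetylase complexes, SAP18 fell and HDAC4 rose (2.94% each way, against 1.01% and 1.03% of all genes). The median was 0.03. SAP18, a subunit of the SIN3 corepressor complex, was at 4517, 4298 and 4009 with pLKO and at 1737 and 1887 with shRNF5 (log2 fold change −1.24, SE 0.13, limma adjusted p = 0.0255). HDAC4, a class IIa deacetylase, was at 1411, 1345 and 1424 and then at 2192 and 2082 (0.62, limma adjusted p = 0.0933). RBBP4, a histone-binding subunit of several such complexes and a partner of RNF5 in the study, had a log2 fold change of −0.05 (SE 0.14, limma adjusted p = 0.887). Of 17 histone genes with polyadenylated transcripts, HIST1H2BK rose from 253, 239 and 505 to 916 and 1263 (log2 fold change 1.78, limma adjusted p = 0.0704). H2AFX, the H2A variant marked at DNA breaks, fell from 1972, 1722 and 1493 to 800 and 949 (−0.98, limma adjusted p = 0.0682). Each of these calls was 5.88% of the list, against 1.03% called higher and 1.01% lower over all genes. Of the 17, 13 had higher and 4 lower values, and 10 were at an unadjusted p under 0.05, 7 of them higher and 3 lower. Wholly above the controls lay 7 (41.2%, against 19.6% of all genes) and wholly below 3 (17.6%, against 19.2%). With library weights 10 were called higher and 2 lower. Of all 13026 genes tested, in both directions, 2213 were at that unadjusted p and the weights called 2224. The histone list had the highest median of the lists with 10 or more members, 1.12, which was 0.06 over its members with a mean of at least 50. Histone genes share near-identical sequence, so the split of reads among them is uncertain.

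Among 31 myeloid differentiation genes, 3 fell (9.68%, against 1.01% of all genes) and 1 rose (3.23%, against 1.03%). The median of −0.24 ranged from −0.53 without shRNF5 replicate 2 to −0.03 without shRNF5 replicate 1. AIF1, an actin-bundling protein of macrophages, was at 7223, 3837 and 3510 with pLKO and at 1686 and 1562 with shRNF5 (log2 fold change −1.50, limma adjusted p = 0.0767). S100A9, a subunit of the neutrophil and monocyte protein calprotectin, was at 2014, 1910 and 2239 and then at 803 and 1303 (−1.002, limma adjusted p = 0.0872). The leukocyte transcript LST1 was the third fall (−0.81, limma adjusted p = 0.0834). The rise was that of CD36, a scavenger receptor of monocytes, from 811, 563 and 763 to 1344 and 1950 (1.20, limma adjusted p = 0.0744). SRGN, the proteoglycan of granules, was the single call among 13 granule genes, going from 70967, 63918 and 59186 to 104925 and 120136 (0.80, limma adjusted p = 0.0767). The set thus held changes in both directions.

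In antigen presentation by MHC class I, 2 of 20 genes tested fell (10%, against 1.01% of all genes) and none rose (against 1.03%). Both encode catalytic subunits of the immunoproteasome, which cuts peptides for display, namely PSMB9 (633, 497 and 579 with pLKO, 262 and 256 with shRNF5, log2 fold change −1.13, limma adjusted p = 0.0622) and PSMB8 (3788, 3260 and 2969, then 1952 and 2056, −0.73, limma adjusted p = 0.0853). The shRNF5 libraries lay wholly below the controls for 8 members of this list (40%, against 19.2% of all genes) and wholly above for none (against 19.6%). Its median was −0.24. The MHC class II list had the lowest median of those plotted, −1.17, with 0 of 10 genes called by limma, 2 at an unadjusted p under 0.05 and 2 called lower with library weights. It ranged from −1.83 without pLKO replicate 2 to −0.49 without shRNF5 replicate 1. Over all 13026 genes tested, 2213 were at that unadjusted p and library weights called 2224. HLA-DRA was at 982, 205 and 435 with pLKO and at 120 and 356 with shRNF5, so the spread within each construct was as large as the difference between them.

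Amino acid supply and mitochondrial genes leaned downward with few calls. Of 27 genes of the ATF4 amino acid response, which are induced when amino acids run short, 1 fell (3.70%, against 1.01% of all genes). The shRNF5 libraries lay below all controls for 16 (59.3%, against 19.2% of all genes) and above all controls for none (against 19.6%). The median was −0.47, and −0.28 without pLKO replicate 3. With library weights 12 were called lower. The call was SLC3A2, the heavy chain of several amino acid exchangers, which went from 4981, 4028 and 5469 to 2962 and 2796 (log2 fold change −0.73, limma adjusted p = 0.0951). The glutamine transporter SLC38A1, which is outside that list, fell 4.35-fold, from 6089, 9094 and 11259 to 2230 and 1727 (−2.12, SE 0.25, limma adjusted p = 0.0275). Of 73 mitochondrial ribosomal protein genes, MRPS27 (log2 fold change −1.39) and MRPL17 (−0.90) fell, none rose, and the median was −0.27. None of 77 respiratory chain genes was called by limma (18 at an unadjusted p under 0.05), and their median was −0.32. Of the 77, 38 lay wholly below the controls (49.4%, against 19.2% of all genes) and 2 wholly above (2.6%, against 19.6%). With library weights 14 were called lower and 1 higher, and with the replicate numbers of the titles as pairs 12 lower and none higher. None of 40 proteasome genes was called by limma (8 at an unadjusted p under 0.05), and with library weights 4 were called lower. Their median was −0.20, with 19 wholly below (47.5%, against 19.2% of all genes) and none wholly above. Of all 13026 genes tested, in both directions, 2213 were at an unadjusted p under 0.05. Library weights called 2224 of them and the pairs by the titles 738.

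Other lists held single calls. XIAP, an inhibitor of caspases, fell from 1803, 2066 and 1798 to 1051 and 1103 (log2 fold change −0.81, limma adjusted p = 0.0682), the only call among 30 genes of the BCL2 and caspase list. SOX4, a transcription factor of immature blood cells, fell (−0.64) among 31 genes of leukemia stem cells. The lactate exporter SLC16A3 rose (0.70) among 28 glycolysis genes, and the sterol desaturase SC5D fell (−0.68) among 30 of cholesterol synthesis. Galectin LGALS1 (0.83) and annexin ANXA1 (1.14), a regulator of inflammation, rose. The lists for interferon-stimulated genes (38 tested), NF-κB (29), cytosolic ribosomal proteins (77), autophagy and lysosome (53) and nucleotide excision repair (40) held no call by limma, and their medians lay between −0.105 and 0.132. At an unadjusted p under 0.05 they held 5, 5, 1, 9 and 8 genes, and with library weights limma called 7, 8, 1, 12 and 8. Over all 13026 genes tested these counts were 2213 and 2224.

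The largest changes among genes with a mean of at least 50 fell mostly outside these lists. The long noncoding RNA RP11-301G19.1 rose most, 7.15-fold, from 106, 154 and 179 to 871 and 1213 (log2 fold change 2.84, SE 0.27, limma adjusted p = 0.0136). The microtubule-associated protein NAV3 rose from 165, 139 and 184 to 687 and 862 (2.25, SE 0.21, limma adjusted p = 0.0136). CXCL10, a chemokine for T cells, rose from 51, 73 and 92 to 290 and 261 (1.96, limma adjusted p = 0.0508), and the adhesion receptor CD48 from 125, 152 and 182 to 492 and 566 (1.80, limma adjusted p = 0.0348). GBP5, an interferon-inducible GTPase (2.65), the surface protease FAP (2.53), the myosin-binding protein MYBPH (2.43) and the semaphorin SEMA6A (1.98) also rose, and the 2 knockdown libraries of GBP5, FAP and MYBPH differed by more than 2-fold from each other.

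NFATC2, a transcription factor driven by calcium and calcineurin, fell most after RNF5 and LSP1 among these genes. It was at 693, 729 and 999 with pLKO and at 155 and 169 with shRNF5, a 4.89-fold fall (log2 fold change −2.29, SE 0.21, limma adjusted p = 0.0136). BLNK, an adaptor of B cell and macrophage receptor signaling (log2 fold change −1.56), the SID1-family membrane protein SIDT1 (−1.94) and SYTL1, an effector of RAB27 in vesicle release (−1.66), fell as well.

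Longer transcripts had higher fold changes. The 12743 genes with a reference transcript length (97.8%) were divided by length into 5 bins of equal size. From the shortest to the longest bin, the median log2 fold change was −0.14, −0.08, 0.004, 0.06 and 0.18. Rises numbered 12, 13, 19, 27 and 63 in the same order, and falls 17, 32, 30, 29 and 20. The median reference transcript was 5102.5 bases long among genes that rose, 3134 among those that fell and 3031 over all genes tested. Where values were first corrected for length, 331 genes were called, 230 of the 266 among them. The called genes named in the text that then missed the threshold were MYH9, FLNA, SSH1, HDAC4, UBN2, S100A9, SLC3A2, ZNFX1 and HELZ2. Their corrected log2 fold changes were smaller but still over 0.4 in size, such as 0.56 for MYH9 (limma adjusted p = 0.146), 0.59 for FLNA (limma adjusted p = 0.212), 0.55 for SSH1 (limma adjusted p = 0.132), 0.42 for HDAC4 (limma adjusted p = 0.217) and 0.49 for UBN2 (limma adjusted p = 0.158). After the correction the medians of the respiratory chain, mitochondrial ribosomal and proteasome lists moved to −0.20, −0.15 and −0.11. The part of length in these results beyond that correction was not tested.

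**Figure D4:**
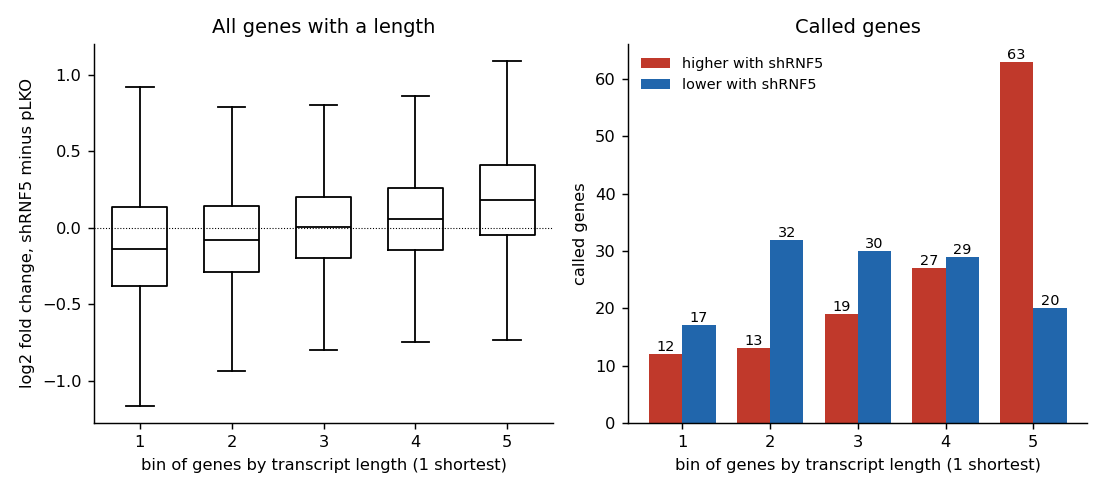
On the left, boxes show the quartiles of the log2 fold change of shRNF5 over pLKO in 5 equal bins of genes by reference transcript length, with whiskers to 1.5 interquartile ranges and outliers not drawn, and on the right, bars count the called genes in each bin. Medians run from −0.14 to 0.18, and 63 of the genes called higher are in the longest bin.

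The MOLM-13 response was set beside those of U937 and HL-60, 2 further AML lines carrying pLKO or shRNF5 (2 libraries of each in U937 and 3 of each in HL-60), each scaled by the authors on its own. Of the MOLM-13 rises, 107 were tested in U937 and 35 of these were also called higher there (32.7%, against 7.12% of all genes tested in both lines and equal to 4.17% of the U937 rises). In HL-60, 51 of 111 were (45.9%, against 13.7% of all genes and equal to 3.21% of the HL-60 rises). Of the falls, 30 of 113 were also called lower in U937 (26.5%, against 8.22% and equal to 3.10% of the U937 falls) and 62 of 121 in HL-60 (51.2%, against 11.8% and equal to 4.51%). In the opposite direction were 1 rise and 1 fall in U937, and 3 rises and 7 falls in HL-60.

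The difference between responses was tested for the 11072 genes present in all 3 lines. It passed an adjusted p under 0.1 for 1708 genes against U937 (15.4%) and for 976 against HL-60 (8.82%). Leaving out shRNF5 replicate 2 gave 190 and 158 genes, and leaving out shRNF5 replicate 1 gave 685 and 49. The U937 count was 798 without pLKO replicate 2, and the HL-60 count was 498 without pLKO replicate 1. Of the 208 called MOLM-13 genes in this test, 50 differed from U937, 64 from HL-60 and 97 from at least 1 of them. Those that differed from both numbered 17 (8.17%, against 148 or 1.34% of all 11072 genes). Of the 17, 14 had a mean of at least 50 and both differences in the direction of their own change. The calls and both differences use the same 5 MOLM-13 libraries, so choosing called genes itself raises the share that differs.

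The genes NFATC2, LSP1 and S100A9 were lower in shRNF5 in MOLM-13 than in either other line. The log2 fold change of NFATC2 was −2.29, beside −0.16 for U937 and −0.59 for HL-60, a difference of −2.13 from U937 (limma adjusted p = 0.00782) and −1.70 from HL-60 (limma adjusted p = 0.0156). LSP1 had −2.77, 0.59 and −0.62 in the same order of lines, with differences of −3.36 (limma adjusted p = 0.0107) and −2.15 (limma adjusted p = 0.0507). S100A9 had −1.002, 3.40 and 1.41, with differences of −4.40 (limma adjusted p = 0.00782) and −2.42 (limma adjusted p = 0.0543), so that its response ran in the opposite direction. LST1, the lamin gene LMNB1, H2AFX and the arrestin-domain gene ARRDC3 also differed from both lines toward lower values in shRNF5. On the other side stood PIWIL4, an Argonaute-family protein, and UBN2, a subunit of a histone chaperone. PIWIL4 (0.87) had −1.29 as its U937 value and −0.31 as its HL-60 value, with differences of 2.17 (limma adjusted p = 0.00782) and 1.18 (limma adjusted p = 0.0451).

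Of the matrix list, COL4A2 and CERCAM differed from the 2 lines in opposite ways. The other matrix rises, THBS1, LAMB3, OLFML2A and LAMC1, passed the test against neither line (limma adjusted p of 0.208 or more). For COL4A2 the log2 fold changes of MOLM-13, U937 and HL-60 were 1.85, −0.28 and 3.16, with differences of 2.13 (limma adjusted p = 0.0209) and −1.31 (limma adjusted p = 0.0953). CERCAM had 1.59, −0.77 and 4.31, with differences of 2.36 (limma adjusted p = 0.0171) and −2.73 (limma adjusted p = 0.01). CD44 fell in MOLM-13 (−0.76) and had 3.19 in HL-60, a difference of −3.95 (limma adjusted p = 0.00545). CCND1 rose in MOLM-13 (1.29) and had −1.16 in HL-60, a difference of 2.46 (limma adjusted p = 0.0158). For RNF5 the difference was −0.13 from U937 (limma adjusted p = 0.906) and −0.52 from HL-60 (limma adjusted p = 0.586), and for SAP18 it was −0.23 (limma adjusted p = 0.632) and −0.29 (limma adjusted p = 0.52).

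**Figure D5:**
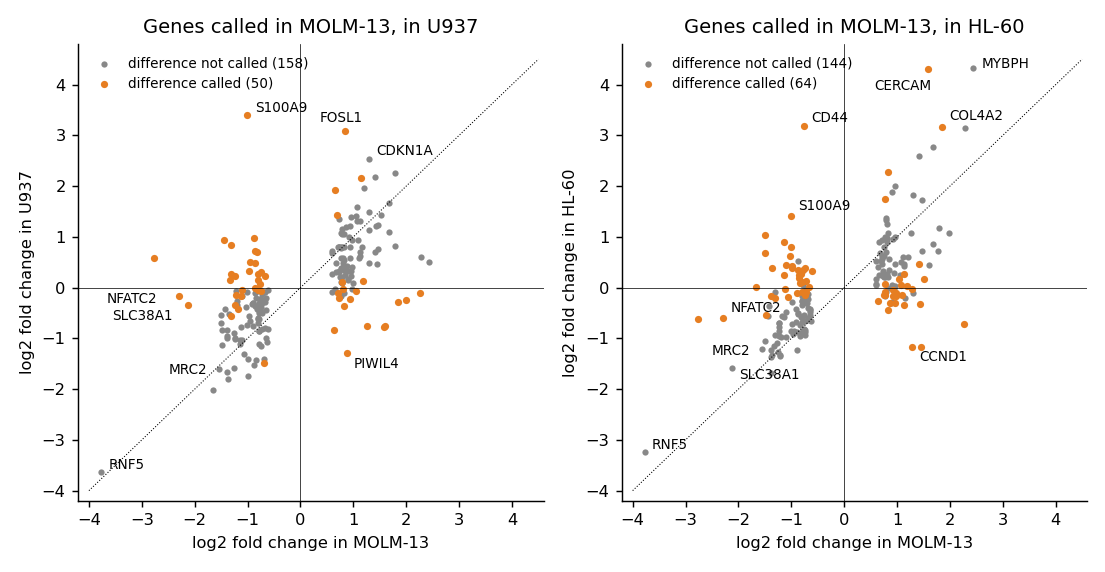
Each point is a gene called in MOLM-13 and present in all 3 lines, with its log2 fold change in MOLM-13 on the x axis and in U937 (left) or HL-60 (right) on the y axis, and the dotted line marks equal values. Orange points are genes whose difference between the lines passed an adjusted p under 0.1, 50 on the left and 64 on the right, among them NFATC2 and S100A9 in both panels.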

How the data were processed

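MOLM-13 libraries carrying pLKO (n = 3) or shRNF5 (n = 2) took their group (construct) and number from the sample titles, although the deposited files number the shRNF5 libraries 2 and 3. According to the labels and the methods, the authors mapped the reads to hg19 (STAR), counted them by gene (featureCounts, Subread) and normalized within each line (edgeR, SARTools). What the authors deposited is treated as a score, because the scaled read counts had been rounded to integers, and a gene that failed their filter appears as 0. The steps between low values gave depths of 9700000 to 63800000 reads. Since these values are not counts, counting intervals are not given. No pair of libraries held identical values.

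For the comparison, limma 3.58.1 in R 4.3.3 was fitted to log2(value + 1), using empirical Bayes with a mean-variance trend, over all 13026 genes above 0 in any of the 5 libraries. A call required a Benjamini-Hochberg adjusted p under 0.1 together with an absolute log2 fold change over 0.4. The other lines were compared by interaction terms in 1 fit over 15 libraries. The procedure was checked on simulated data. Transcript lengths, coordinates and start sites were taken from GENCODE (GRCh37, the build of hg19) by identifiers without version, and promoter windows were read from that genome.

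The genes, the 42 gene lists and the comparisons were chosen with earlier results of these data known, and no list was tested. Named genes were RNF5, the 15 called genes that rose most and the 15 that fell most with a mean of at least 50 and no overlap between constructs, up to 5 called members in each direction and the 3 members with the highest mean of each list, 5 genes of the proposed RNF5 mechanism, and up to 10 called genes that differed from both other lines. Not every gene this rule names is described, some items are not reported here, and genes added after their values were seen are marked as such. The alternatives were pseudocounts of 0.5 and 10, a mean of at least 50, other thresholds, scalings and variance models, library weights, a lowess correction for transcript length (span 0.3), a replicate block and leaving out each library. The replicate numbers were not treated as pairs in the reported fit, and a block by the files' numbers was added after the data were seen.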

Additional observations from a re-analysis of the deposited data

Results flagged for a closer look

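Between lines, the response differed from that of U937 for 1708 genes and from that of HL-60 for 976, by limma's test of the difference itself. Differences below are log2 fold changes in MOLM-13 minus those in the other line, among called MOLM-13 genes named in the text.

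Against both lines the difference passed for 11 of the named genes. It was −2.13 and −1.70 for NFATC2, −3.36 and −2.15 for LSP1, −4.40 and −2.42 for S100A9, and −1.52 and −1.09 for LST1 (U937 first, then HL-60). It was −1.34 and −1.10 for LMNB1, −1.31 and −1.38 for H2AFX and −1.57 and −1.11 for ARRDC3. It was 2.17 and 1.18 for PIWIL4 and 1.18 and 1.27 for UBN2. Of opposite sign were COL4A2 (2.13 and −1.31) and CERCAM (2.36 and −2.73).

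Against U937 alone, SLC38A1 differed by −1.77, STT3B by −0.75, TMPO by −1.06, OAT by −1.06 and COTL1 by −1.05, all lower in MOLM-13 shRNF5 relative to its control. FOSL1 (−2.25), ANXA1 (−1.03) and SLC16A3 (−0.73) rose in MOLM-13 but by less than in U937.

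Against HL-60 alone, AIF1 differed by −2.18, CD44 by −3.95, SYTL1 by −1.66, SLC3A2 by −1.13, PSMB9 by −1.09, PSMB8 by −0.86 and MRPL17 by −0.80. The rises of LGALS1 (−1.45) and MOV10 (−0.96) were smaller in MOLM-13 than the HL-60 values. Higher in MOLM-13 than in HL-60 were the log2 fold changes of CCND1 (2.46), IGF2R (1.24), VCL (0.97), IGF2BP3 (0.95) and ZNFX1 (0.91). The HL-60 values themselves were −1.16 for CCND1 and −0.04 for VCL. The groups of 3 and 2 libraries are too small for a test of single outlying libraries.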

How the results depend on the processing

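The number of called genes was 39 at an adjusted p under 0.05, 1973 at an unadjusted p under 0.05 with the same fold change minimum, 55 without the mean-variance trend (50 of the 266 among them) and 2224 with library weights, which included all 266. Leaving out 1 library gave 1 to 872 calls, the lowest without pLKO replicate 2 and the highest without pLKO replicate 1. It gave 190 to 2182 genes for the difference from U937 and 49 to 1317 for that from HL-60. At an adjusted p under 0.05 those differences numbered 808 and 360. Pseudocounts, the minimum mean of 50, other scalings, the robust variance model, 1 fit over 15 libraries and the length correction gave 249 to 331 calls.

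The replicate numbers of the labels were also fitted as a replicate block, which gave 738 calls, 234 of the 266 among them. Deviations of libraries with the same number in the titles correlated at −0.133 and −0.447. The deposited files number the shRNF5 libraries 2 and 3, and a replicate block by those numbers, added after the data were seen, gave 2495 calls with all 266 among them. In it pLKO replicate 1 has no partner, and the correlations were 0.447 and 0.266. With 2 shRNF5 libraries their deviations mirror each other, so these correlations are not independent. Which numbers pair the libraries, if any, could not be settled.

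Of 85 called genes named in the text, none changed direction in any setting. Leaving out a library could not have reversed them, because the constructs did not overlap in any called gene. Of those that could be fitted, 83 of 85 were still called with a pseudocount of 0.5, 47 of 65 in 1 fit over 15 libraries, 22 of 85 without the trend and 75 of 84 after the length correction. Among uncalled genes, leaving out a library moved RBBP4 to between −0.129 and 0.036 and RNF185 to between −0.052 and 0.286, so neither has a direction. Of 42 list medians, 20 moved in some setting by more than their spread between libraries of a construct. With 3 and 2 libraries, the shallowest of 9700000 reads, changes in low genes may have been missed.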

Other observations

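The genes in these paragraphs are called MOLM-13 genes outside the naming rule, chosen after their values were seen. RNF115, another RING-type ubiquitin ligase, was at 1334, 1514 and 1427 with pLKO and at 561 and 527 with shRNF5 (log2 fold change −1.39, SE 0.15, limma adjusted p = 0.0255). Its log2 fold change was −1.66 in U937 and −1.37 in HL-60, and neither difference from MOLM-13 passed the test (limma adjusted p of 0.569 and 0.972). Single genes that fell were the alanine aminotransferase GPT2 (1788, 2353 and 3200, then 1190 and 868, log2 fold change −1.23), the ornithine aminotransferase OAT (−1.21) and the transporter SLC38A5 (−0.85).

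The unconventional myosin MYO6 rose from 2585, 3362 and 3617 to 7043 and 6753 (log2 fold change 1.13, limma adjusted p = 0.0491), and the intermediate filament protein VIM rose (0.84), while the actin-associated proteins PDLIM1 (−0.86) and COTL1 (−0.75) fell. The RNA-binding proteins IGF2BP3 (log2 fold change 1.41) and IGF2BP1 (0.83) rose, as did IGF2R (1.09), which clears the ligand encoded by one of their target RNAs. The helicase-family genes MOV10 (0.78), HELZ2 (0.76) and ZNFX1 (0.76) rose too. The lamina-associated protein TMPO fell (−1.10), as did LMNB1 (−0.85). The long noncoding RNA LINC01021 rose from 220, 244 and 228 to 679 and 454 (1.27, limma adjusted p = 0.0679).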
